A study of Mus musculus with 33 samples.

Results

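Mice lacking the long noncoding RNA Cyrano were compared directly with mice lacking genes of the microRNA miR-7. The comparison took the 4 cerebellum libraries labelled Cyrano-/- (CyrKO) and the 4 labelled as lacking Mir7a1 and Mir7b (Mir7DKO) from experiment 1B, 8 of the 33 libraries of the study, which were joined by gene and normalised together without wild-type libraries. All mice were C57Bl/6J males aged 1 month, and each library was a stranded one of polyadenylated RNA from flash-frozen cerebellum. The labels name no deletion of the other miR-7a gene, Mir7-2, in Mir7DKO, and do not say how the alleles were made. The 4 wild-type libraries of experiment 1B show on which side of wild type a difference lay. A second contrast came from libraries outside the comparison, namely 4 with a mutated miR-7 site in Cyrano (CyrMut) against 3 wild type in experiment 1A and 3 Mir7DKO against 4 wild type in experiment 2, all of cerebellum from the same strain, sex and age.

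A microRNA guides Argonaute to messenger RNAs through its seed, the bases near its 5′ end, and lowers their level. Cyrano pairs with miR-7 both at the seed and along the rest of the microRNA, an arrangement that directs miR-7 to decay, so that loss of Cyrano and loss of miR-7 genes act on the level of miR-7 in opposite directions. Cdr1as is a circular RNA of neurons with many miR-7 seed sites. A circle has no end to carry a poly(A) tail, and what its feature captured in these polyadenylated libraries was not tested.

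The sequences of the network show what the knockouts act on: the seed (bases 2 to 8, capitals) that both forms of miR-7 share, and the site in Cyrano. The miRNAs are from RefSeq (GRCm38.p6) and the transcript sites from GENCODE M21 (GRCm38), with capitals for the bases that match the seed and, last in each site, the A opposite base 1 of the miRNA. miR-7a comes from Mir7-1 (chr13:58392841-58392863, minus strand) and Mir7-2 (chr7:78888295-78888317, plus strand), and miR-7b from Mir7b (chr17:56243017-56243040, plus strand). Counted from 1 at the 5′ end, miR-7b differs from miR-7a by A10U and by its extra last base.
miR-7a: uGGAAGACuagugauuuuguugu
miR-7b: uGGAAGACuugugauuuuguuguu
Cyrano, site of extensive pairing: agaacaacaaaatcaccaatGTCTTCCA
Cyrano, another 8-mer site: cttcaggttttttttttaatGTCTTCCA
The first Cyrano site (chr2:119602134-119602161, plus strand, exonic) also holds, upstream of the seed match, a run of 13 bases complementary to miR-7a. A few bases outside the run separate it from the seed match. Runs were searched at any upstream position, against any part of miR-7a beyond the seed. The longest such run at the second site (chr2:119599944-119599971) was 3 bases, and it was 3 or 4 bases at each of the other matches of 7 or 8 bases in the 8300-base Cyrano transcript.

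The 8 libraries held 8.15 to 14.92 M counts, and the biological coefficient of variation was 8.71%. Levels are counts per M counts (CPM) on library sizes scaled by the trimmed mean of M-values (TMM), and a difference is log2 of CyrKO over Mir7DKO with its standard error (SE). Markers of cerebellar neurons were high in every library: the summed level of 15 granule cell markers ran from 9785 to 10640 CPM and that of 15 Purkinje cell markers from 10560 to 11670 CPM, against 294 to 411 CPM for the 9 midbrain and forebrain markers that passed the filter on low counts, and Emx1 and Drd1 of the same list were at 0. Mir7DKO replicate 1 lay apart from the other 7 libraries on the second principal component (-21.3 against -5.63 to 12.5, 16.6% of the variance). Choroid plexus markers, at 33.9 to 41.5 CPM summed in 6 of the 8 libraries, reached 170.5 CPM in CyrKO replicate 1 and 336 CPM in Mir7DKO replicate 4. Wild-type replicate 2 had 408 CPM. Of the deleted genes, Cyrano was low in all 4 CyrKO libraries, as given below. Mature miR-7 is not measured in polyadenylated RNA, so the loss of miR-7 in the libraries labelled Mir7DKO could not be checked. The Mir7-1 feature, for Mir7a1, held 0, 4, 4 and 3 counts in Mir7DKO, 4, 3, 0 and 2 in CyrKO and 4, 4, 0 and 1 in wild type, and showed no loss. The Mir7b feature went against the direction of a deletion: it held 1 to 8 counts in 7 of 7 Mir7DKO cerebellum libraries and 0 counts in the 19 other cerebellum libraries of all 3 experiments, where a count of 0 allows up to 3 counts. Within the comparison it held 2, 3, 7 and 5 counts in Mir7DKO and 0 in each CyrKO library, so counts appeared only in the libraries labelled as lacking Mir7b, and the cause was not tested.

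The direct test called 7 of 13814 genes (0.0507%), 2 higher (0.0145%) and 5 lower (0.0362%) in CyrKO, by edgeR's quasi-likelihood test at a Benjamini-Hochberg adjusted p under 0.05. Each of the 7 separated the 4 CyrKO from the 4 Mir7DKO libraries, which 5.82% of all genes tested also did (2.77% with CyrKO above and 3.05% with CyrKO below). At an unadjusted p under 0.05 stood 1410 genes (10.2%). The number called turned on single libraries and on the tool. Without Mir7DKO replicate 1 it was 99, of which 74 were higher in CyrKO, and with any other single library left out it was 3 to 5. DESeq2's Wald test called 57 genes, 15 higher and 42 lower.

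**Figure D1:**
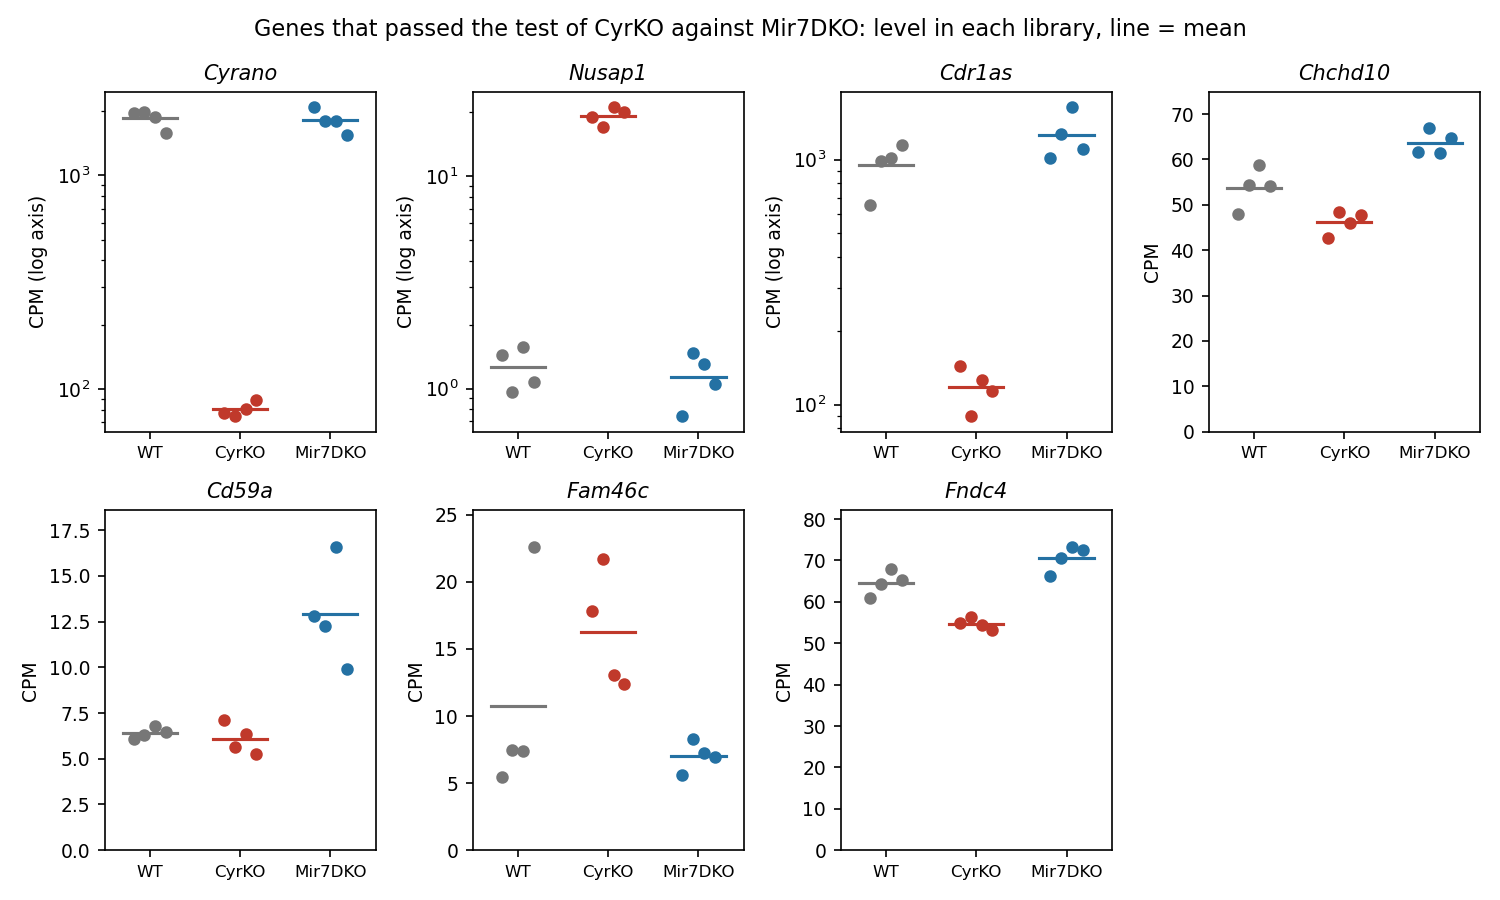
Level (CPM) in each library of experiment 1B of the 7 genes called between CyrKO and Mir7DKO; points are libraries, lines group means, and the axes of Cyrano, Nusap1 and Cdr1as are logarithmic. CyrKO and Mir7DKO do not overlap in any panel, and wild type (WT) lies with Mir7DKO for Cyrano, Nusap1 and Cdr1as, with CyrKO for Cd59a, and between or across both for the others.

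Cyrano and Cdr1as, both RNAs of the miR-7 network, were low in CyrKO. Cyrano (1700020I14Rik, ENSMUSG00000085438, a lincRNA on chromosome 2 from 119594297 to 119607502, plus strand) stood at 77.4, 74.7, 80.5 and 88.9 CPM in the CyrKO libraries and at 2079, 1798, 1801 and 1550.5 CPM in the Mir7DKO libraries. It was 22.5-fold lower in CyrKO (log2 -4.49, SE 0.0967, edgeR adjusted p = 1e-11), and wild type, at 1570.5 to 1974 CPM, lay with Mir7DKO.

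Cdr1as was at 143, 89.6, 126 and 113 CPM in CyrKO. In Mir7DKO it was at 1018, 1274, 1634 and 1108 CPM, so the lowest Mir7DKO library was far above the highest CyrKO library. The log2 difference was -3.41 (SE 0.161, edgeR adjusted p = 7.92e-08), or 10.7-fold. Set side by side against the wild-type libraries they share, CyrKO differed by -3.02 (SE 0.168) and Mir7DKO by 0.41 (SE 0.169), and edgeR's adjusted p was 3.67e-07 and 1. By the same test CyrKO against wild type called 3 genes (0.022%), namely Cyrano, Cdr1as and Nusap1, and Mir7DKO against wild type called 1 (0.00713%), the pseudogene Pisd-ps1, whose counts are uncertain. C230004F18Rik, the host transcript of Cdr1as on the X chromosome, had 14.6 to 19.6 CPM in CyrKO and 12.2 to 25.2 CPM in Mir7DKO, with overlapping groups (difference 0.07, SE 0.199). Hnrnpk, the host gene of Mir7-1 and an RNA-binding protein, differed by -0.03 (SE 0.0566).

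Nusap1, a neighbour of Cyrano, was higher in CyrKO. It encodes a protein that bundles spindle microtubules in mitosis, and it lies 10795 bases downstream of Cyrano on the same strand (ENSMUSG00000027306, chromosome 2, 119618298 to 119651244). Its levels were 19.1, 17.1, 21.1 and 20.1 CPM in CyrKO and 0.740, 1.47, 1.30 and 1.05 CPM in Mir7DKO. The log2 difference was 4.03 (SE 0.158, edgeR adjusted p = 1.12e-08), with wild type at 0.962 to 1.57 CPM. Among 22 measured genes around Cyrano it was the only one called, and the median difference of these 22 was 0.00 against 0.01 over all genes tested. Its 3′ UTR holds 1 8-mer (chr2:119649839-119649866, plus strand), printed below with the sites of other genes. Among 21 cell cycle genes, Mki67, Top2a and Ccna2 were also higher at an unadjusted p under 0.05 (log2 0.92, 0.84 and 0.60), at 0.317 to 5.28 CPM over all 8 libraries, and none of these 3 passed the adjusted test. With Nusap1 they made 4 of 21 higher, against 4.77% of all genes tested, and the count was 3 with the GC offset described below.

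Cd59a, which encodes a membrane inhibitor of the complement attack complex, was low in CyrKO and wild type and higher in Mir7DKO. It was at 7.11, 5.64, 6.38 and 5.26 CPM in CyrKO, 6.09 to 6.79 CPM in wild type, and 12.8, 12.3, 16.6 and 9.91 CPM in Mir7DKO (ENSMUSG00000032679, chromosome 2, 104095801 to 104115354, plus strand). The difference between CyrKO and Mir7DKO was -1.09 (SE 0.162, edgeR adjusted p = 0.037). Against wild type, CyrKO differed by -0.09 (SE 0.133) and Mir7DKO by 1.01 (SE 0.149), with edgeR's adjusted p = 0.869 and 0.128. It was the 1 complement gene called of 12 measured. The call was lost without any single CyrKO library and without Mir7DKO replicate 2 or 3 (adjusted p up to 0.169).

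Chchd10, Fndc4 and Fam46c made up the rest. Chchd10, a mitochondrial intermembrane protein mutated in motor neuron disease, was at 42.6, 48.4, 45.9 and 47.8 CPM in CyrKO and 61.5, 66.9, 61.4 and 64.8 CPM in Mir7DKO (log2 -0.46, SE 0.0635, edgeR adjusted p = 0.0216). Wild type, at 47.9 to 58.7 CPM, overlapped with CyrKO and lay below every Mir7DKO library. Fndc4, a secreted fibronectin type III protein, was at 54.9, 56.3, 54.5 and 53.2 CPM in CyrKO and 66.3, 70.5, 73.3 and 72.5 CPM in Mir7DKO (log2 -0.37, SE 0.0567, edgeR adjusted p = 0.037). Fam46c, a poly(A) polymerase of secretory and erythroid cells, was at 17.8, 21.7, 13.1 and 12.4 CPM in CyrKO and 5.60, 8.28, 7.21 and 6.93 CPM in Mir7DKO (log2 1.19, SE 0.180, edgeR adjusted p = 0.037). Wild-type replicate 4 reached 22.6 CPM for Fam46c, above every CyrKO library, and the other 3 wild-type libraries lay at 5.48 to 7.48 CPM. With edgeR, Chchd10 and Fndc4 each lost their call without any single library except Mir7DKO replicate 1, and Fam46c without any single library except CyrKO replicate 4 and Mir7DKO replicate 1. With an offset for transcript GC content, described below, all 3 missed edgeR's threshold (adjusted p = 0.0863, 0.0863 and 0.0767), with log2 differences of -0.36 for Chchd10, -0.31 for Fndc4 and 1.16 for Fam46c.

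The next genes by p, none past the adjusted edgeR test, are given by their values. They also include 4 red blood cell genes, described further on. Synpr, a synaptic vesicle protein, was at 71.8 to 77.8 CPM in CyrKO and 57.5 to 64.3 CPM in Mir7DKO (log2 0.32, SE 0.0597, adjusted p = 0.144). Eps8, an actin-binding signalling protein, was at 195 to 210.2 CPM in CyrKO and 123 to 172 CPM in Mir7DKO, with a difference of -0.03 (SE 0.0852) between CyrKO and wild type and -0.44 (SE 0.113) between Mir7DKO and wild type. Zfp57, a KRAB zinc finger protein that maintains imprints, was at 17.1 to 21.2 CPM in CyrKO and 11.3 to 13.7 CPM in Mir7DKO. Lower in CyrKO were Speg, a muscle-type kinase (131 to 139 against 154 to 174 CPM), Lars2, the mitochondrial leucyl-tRNA synthetase (62.7 to 67.7 against 77.0 to 85.8 CPM), and Plk5, a polo-like kinase of the brain (25.2 to 34.4 against 40.7 to 52.6 CPM). In each of these 6 genes, taken for their small p, the genotypes did not overlap, as in 5.82% of all genes tested. The edgeR adjusted p-values of these 6 ran from 0.0923 to 0.16, and DESeq2's Wald test called all 6 (adjusted p = 0.000504 to 0.0127). Of other next genes by p, DESeq2's Wald test called Atn1 and Wbp2 (adjusted p = 0.00161 and 0.002). It did not call Srrd (0.0941) and gave Rsad2 no adjusted p. Of the 4 red blood cell genes it called Alas2 (0.0426) but not Hba-a1, Hba-a2 or Hbb-bt (0.0602 to 0.0745). With the GC offset Speg, at 62.6% GC, differed by -0.15 in place of -0.31 (edgeR adjusted p = 0.759).

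**Figure D2:**
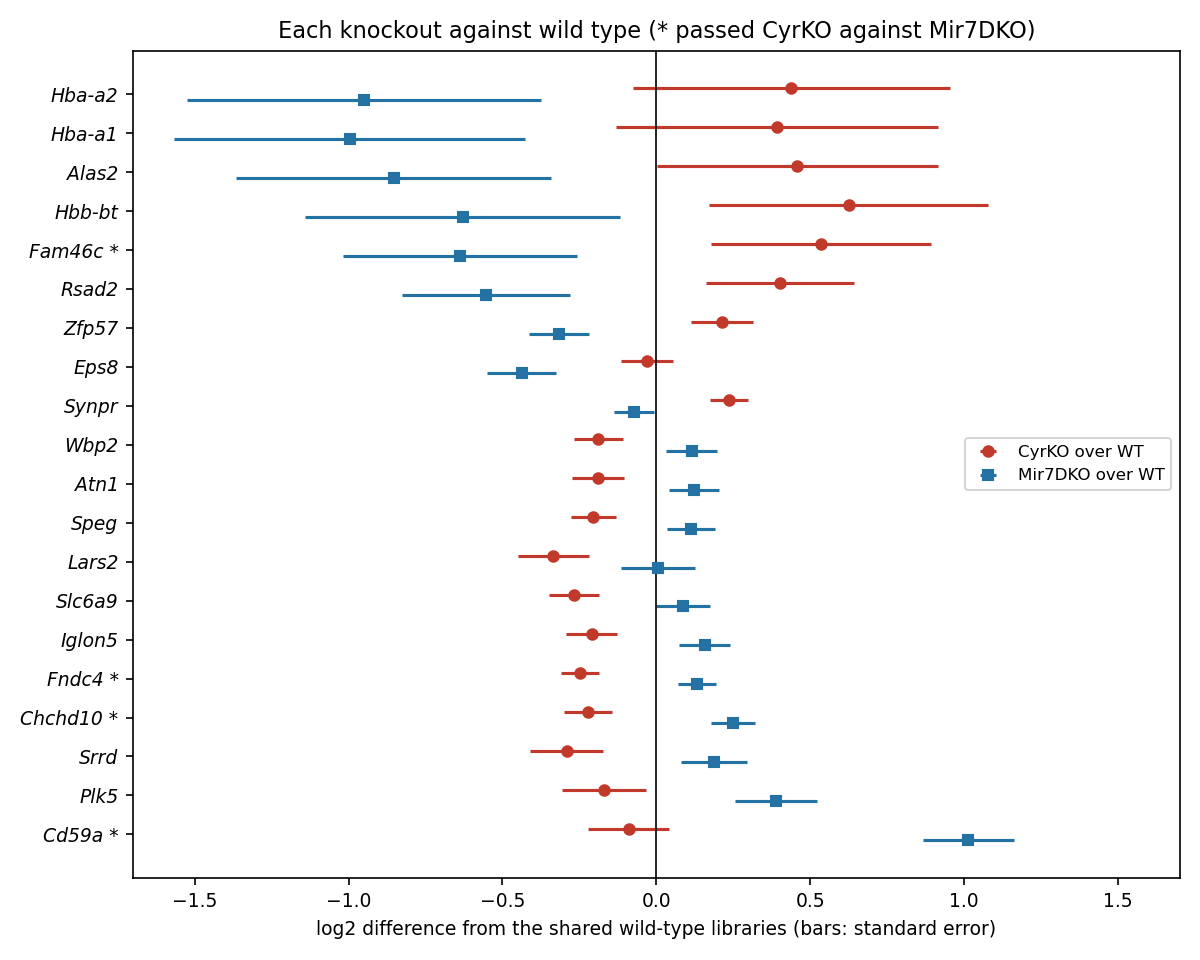
Log2 difference of CyrKO (circles) and of Mir7DKO (squares) from the 4 wild-type libraries they share, with standard errors, for the called genes other than Cyrano, Cdr1as and Nusap1 (asterisks) and the next genes by p. Cd59a departs from 0 in Mir7DKO only by more than its SE, Lars2 in CyrKO only, and Fndc4 and Chchd10 lie on opposite sides of 0.

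Messenger RNAs with miR-7 sites in their 3′ UTR were set against those without. Sites were searched in the longest annotated 3′ UTR as the 8-mer GTCTTCCA, the 7-mers GTCTTCC and TCTTCCA and the 6-mer TCTTCC, among genes whose normalised counts averaged 50 or more. Of 10992 such genes with an annotated 3′ UTR, 4.65% held the 8-mer as their strongest match, 10.9% the 7-mer GTCTTCC, 12.9% the 7-mer TCTTCCA and 21.4% only the 6-mer. The 511 genes with an 8-mer had a median log2 difference of 0.01, as had the 5513 genes without a match, and their medians differed by 0.00826. Of the 8-mer genes 37 (7.24%) were lower and 32 (6.26%) higher in CyrKO at an unadjusted p under 0.05, against 6.19% and 4.50% of genes without a match and 5.44% and 4.77% of all genes tested. The 8-mer or 7-mer genes together, 3127 of them, had a median of 0.02. The mean level of the 8-mer genes less that of genes without a match, relative to wild type and on the log2 scale, was 0.03, 0.003, 0.033 and 0.003 in the CyrKO libraries and 0.015, 0.003, 0.013 and -0.02 in Mir7DKO, so the groups overlapped. Of 40 reported miR-7 targets, 0 were called and 3 had an unadjusted p under 0.05: Cul5, an E3 ligase scaffold, and the transcription factor Pax6 were higher (log2 0.15 and 0.12), and Tnk2, a Cdc42-bound kinase, was lower (-0.20). Their median was 0.01.

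Transcript GC content ran along with the direct difference. Over 5 equal groups of genes by GC, the median log2 difference was 0.08 in the lowest, then 0.05, 0.02 and -0.04, and -0.11 in the highest. In the lowest group 284 genes were higher and 13 lower in CyrKO at an unadjusted p under 0.05, and in the highest group 13 were higher and 480 lower. Across 13697 genes, which are not independent, r was -0.376 and rho was -0.479. The difference between top and bottom GC groups relative to the wild-type mean was -0.179, -0.02, -0.285 and -0.298 in the CyrKO libraries, -0.123, 0.055, -0.055 and 0.109 in Mir7DKO and -0.144 to 0.236 among wild-type libraries, so CyrKO and Mir7DKO overlapped. Wild type spanned Mir7DKO, while 3 of the 4 CyrKO libraries lay below every wild-type library. Chchd10 (58.2% GC) and Fndc4 (55.6%) were in the highest GC group.

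An offset that levels this trend in each library was added after seeing the data. With it 4 genes were called (0.029%): Cyrano, Nusap1, Cdr1as and Cd59a. At 8-mer sites 36 of 511 genes (7.05%) were then lower in CyrKO at an unadjusted p under 0.05 and 10 (1.96%) higher, against 3.27% and 3.01% of genes without a match and 3.53% and 2.88% of all genes. The 7-mer-m8 class had 3.84% lower and 2.26% higher. The medians stayed close (-0.00549 for 8-mer genes, 0.00071 without a match). The mean level of 8-mer genes less that of genes without a match was again set relative to wild type. With the offset it was 0.0142, -0.0006, 0.0085 and -0.0231 in the CyrKO libraries. In Mir7DKO it was 0.0071, 0.0096, 0.0069 and -0.0120, so the groups overlapped. With each library left out in turn, 27 to 44 8-mer genes were lower and 10 to 28 higher; the 28 came without Mir7DKO replicate 1, where 299 genes without a match were higher against 166 with all libraries. The 8-mer genes with the smallest p in the direct test besides Nusap1 were Fndc4, Iglon5, Slc6a9 and Ssh3. Their sites, with that of Nusap1, were:
Nusap1: cacacctcctccatccacttGTCTTCCA
Fndc4: ctgcattgcactattccagtGTCTTCCA
Iglon5: cgtgggccccatcccacattGTCTTCCA
Slc6a9: cccagccttgggtccagtgtGTCTTCCA
Ssh3: ttgtggccattccaccctgcGTCTTCCA
These lie at chr2:119649839-119649866 (plus), chr5:31292983-31293010 (minus), chr7:43473035-43473062 (minus), chr4:117868790-117868817 (plus) and chr19:4261981-4262008 (minus). The longest upstream runs complementary to miR-7a beyond its seed were 2 to 5 bases, against 13 at the Cyrano site. These runs were not aligned to the seed match, so runs this short do not show pairing.

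The values of these genes were small shifts shared by the libraries of a genotype. Iglon5, a cell adhesion protein of neurons, was at 47.9, 53.1, 53.0 and 51.8 CPM in CyrKO and 61.2, 65.7, 66.7 and 70.0 CPM in Mir7DKO (log2 -0.36, SE 0.0633, adjusted p = 0.108). Slc6a9, the glycine transporter of glia, was at 91.7, 87.9, 79.5 and 89.3 CPM against 103, 116, 103 and 119 CPM (adjusted p = 0.144). Ssh3, a cofilin phosphatase, was at 39.4 to 41.8 against 49.1 to 52.1 CPM. Snhg11, a host gene of small nucleolar RNAs with an 8-mer in its annotated 3′ UTR, was chosen after its value was seen: it was at 1619 to 1891 CPM in CyrKO and 1939 to 2110 CPM in Mir7DKO. In each of these 4 genes, chosen for their p or value, the groups did not overlap, as in 3.05% of all genes tested with CyrKO below. None of the 4 passed edgeR's test, whereas DESeq2's Wald test called Iglon5, Slc6a9 and Ssh3 (adjusted p = 0.00187, 0.00573 and 0.029). With the GC offset the log2 difference was -0.23 for Iglon5 (edgeR adjusted p = 0.537), -0.26 for Slc6a9, -0.25 for Ssh3 and -0.23 for Snhg11.

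**Figure D3:**
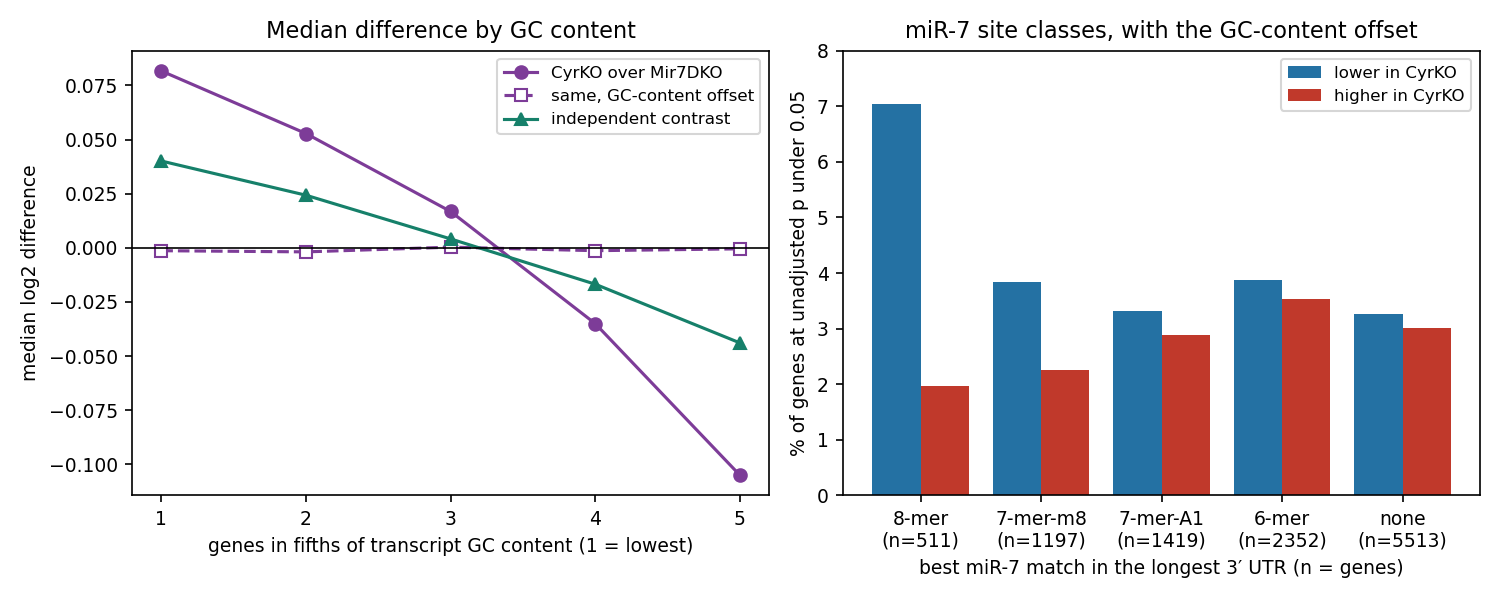
Left: median log2 difference in 5 equal groups of genes by transcript GC content, for CyrKO over Mir7DKO, the same with the GC offset, and the independent contrast. Right: percent of genes of each miR-7 site class that were lower or higher in CyrKO at an unadjusted p under 0.05, with the GC offset; bars start at 0, and the 8-mer bars stand at 7.05% lower and 1.96% higher.

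Red blood cell genes were higher in CyrKO than in Mir7DKO in most members. Of 8 measured, 6 were higher in CyrKO at an unadjusted p under 0.05, against 4.77% of all genes tested in that direction; 0 were called by edgeR's quasi-likelihood test, and the median difference was 1.28. Alas2, the first enzyme of heme synthesis in red cells, was at 53.2, 73.5, 40.8 and 38.2 CPM in CyrKO and 11.6, 21.3, 30.2 and 17.9 CPM in Mir7DKO (log2 1.32, SE 0.245, adjusted p = 0.144). The globins Hba-a1, Hba-a2, Hbb-bs and Hbb-bt differed by 1.40, 1.40, 1.31 and 1.26, but their near-identical copies may share reads. The summed level of the 8 genes was 1190, 1498, 848 and 825 CPM in CyrKO, 302 to 702 CPM in Mir7DKO and 331, 514, 432 and 1880 CPM in wild type, so 1 wild-type library was above all 8 knockout libraries. Fam46c was likewise highest in wild-type replicate 4, and the part of red cells in its call was not tested. In bulk tissue, fewer cells of a type and less RNA per cell cannot be told apart.

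**Figure D4:**
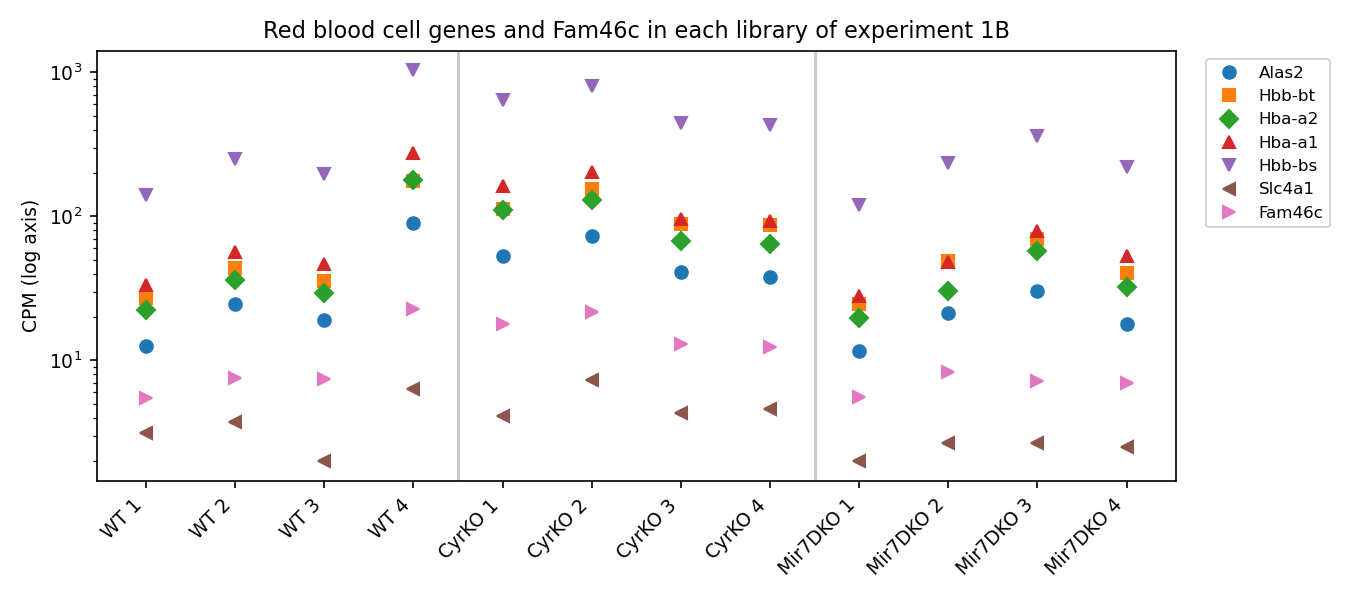
Level (CPM, logarithmic axis) of 6 red blood cell genes and Fam46c in each library of experiment 1B. Wild-type replicate 4 is above every CyrKO library in all but Slc4a1, and CyrKO lies above Mir7DKO in every gene shown.

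The counts for other lists are at an unadjusted p under 0.05, where 4.77% of all genes were higher and 5.44% lower and the median was 0.01. Of 18 clock genes 8 were lower and 2 higher in CyrKO: among them Per1, a light- and stress-induced repressor, was at 53.0 to 122 CPM against 80.4 to 133 CPM (log2 -0.56), and the activator Clock was at 163 to 196 against 103 to 164 CPM (0.35). Both overlapped between groups, the median of the list was -0.22, and 0 were called. Of 47 nuclear subunits of oxidative phosphorylation 9 were lower and 0 higher (median -0.05). In 3 of the 47 the groups did not overlap, with CyrKO below, against 3.05% of all genes tested. Among these 3 were Cox8a and Cox6a1, both subunits of cytochrome c oxidase (60.4 to 73.5 against 78.0 to 88.1 CPM, and 66.8 to 81.3 against 82.8 to 99.2 CPM). The 7 mitochondrially encoded messenger RNAs measured had 0 at an unadjusted p under 0.05 and a median of -0.07, but 3 lower and a median of -0.16 with the GC offset. Of 26 genes of microRNA biogenesis and decay 5 were higher and 0 lower (median 0.07): Papd4, a poly(A) polymerase of RNAs including microRNAs, was at 15.8 to 17.8 CPM against 13.4 to 14.6 CPM, and Xrn2, an exonuclease, at 69.0 to 76.0 against 58.7 to 67.2 CPM. Of 22 immediate early genes 3 were lower and 0 higher (median -0.09), and of 19 glucocorticoid-induced genes 1 was lower. Granule cell markers had 1 higher and 0 lower of 15, and Purkinje cell markers 3 higher and 0 lower of 15, with Pcp4, a calmodulin-binding protein, at 119.9 to 144 against 110 to 117 CPM. Endothelial and mural markers had 5 higher and 0 lower of 19 (4 and 0 with the GC offset). Interneuron markers had 0 higher and 3 lower of 14 (0 and 0 with it). Bergmann glia and astrocyte markers had 3 higher and 1 lower of 15 (1 and 1 with it). With the GC offset, where 3.53% of all genes were lower and 2.88% higher, the counts were 5 lower and 1 higher for clock genes (median -0.20), 11 lower for oxidative phosphorylation (-0.05), 2 higher for microRNA biogenesis and decay (0.02), 1 lower for immediate early genes (-0.03), 0 for glucocorticoid-induced genes and granule cell markers, and 2 higher for Purkinje cell markers.

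The independent contrast set the change in CyrMut from its wild type against that of Mir7DKO in experiment 2 from its own. It called 4 of 14723 genes (0.0272%) by edgeR, and 751 genes were at an unadjusted p under 0.05 (5.1%; 2.57% lower and 2.53% higher). Cdr1as again differed, by -3.36 (SE 0.123, edgeR adjusted p = 2.38e-12), from 95.0 to 124 CPM in CyrMut and 1010 to 1184 CPM in Mir7DKO. Cd59a differed by -1.26 (SE 0.193, adjusted p = 0.0192), at 4.73 to 6.41 CPM in CyrMut and 14.7 to 18.5 CPM in Mir7DKO, while both wild-type groups lay at 4.20 to 6.80 CPM. This Cd59a call was lost without wild-type replicate 1 or 2 of experiment 1A, wild-type replicate 3 or 4 of experiment 2, or Mir7DKO replicate 3, while Cdr1as passed with any single library left out. The count of 4 calls fell to 1 without wild-type replicate 1 of experiment 1A, wild-type replicate 3 of experiment 2 or Mir7DKO replicate 3, and to 2 without wild-type replicate 2 or 3 of experiment 1A or wild-type replicate 1 or 4 of experiment 2. Wdfy1, an endosomal protein, and Renbp, an epimerase that binds renin, were called here but not in experiment 1B, where Wdfy1 was at 30.4 to 32.8 CPM in CyrKO and 48.5, 50.7, 31.6 and 30.6 CPM in Mir7DKO, that is, high in 2 of the 4 libraries. Renbp (edgeR adjusted p = 0.0491) lost its call whichever single library was left out, and DESeq2 did not call it. CyrMut keeps the Cyrano transcript, and Cyrano (0.12, SE 0.0815) and Nusap1 (0.23, SE 0.527) did not pass. Chchd10 and Fndc4 differed by -0.26 each with an unadjusted p of 0.022 and 0.0074 but adjusted p = 0.926, and Fam46c, at -1.10 (SE 0.561), lay in the other direction, as did the 8 red blood cell genes (median -1.15, 3 lower and 0 higher at an unadjusted p under 0.05). Of the 18 clock genes 0 were lower and 2 higher here at an unadjusted p under 0.05, 7 were below 0, and the median was 0.11.

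Of the 36 8-mer genes lower in CyrKO with the offset, 27 (75%) were also below 0 in the independent contrast. Of the 180 such genes without a match, 123 (68.3%) were. The GC trend was present there too, with medians from 0.04 in the lowest group to -0.04 in the highest. With the offset, 8-mer genes of the independent contrast had 2.86% lower and 1.72% higher at an unadjusted p under 0.05, against 2.75% and 3.06% of genes without a match and 2.81% and 2.89% of all genes tested. Their median log2 difference was -0.0142, against 0.00279 without a match, and 56.3% against 48.9% were below 0. Without the offset the medians were -0.00625 and 0.00198.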

How the data were processed

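RNA libraries of mouse cerebellum were compared as raw counts. The authors deposited 1 table per comparison holding a whole-number count for each gene and library, as the file headers name them. Per the submitters' processing notes, the tools were DESeq2 1.10, STAR 2.4 and HTSeq 0.6.1p1, on mm10 (GRCm38). The libraries were stranded, but whether counting used strand and how it treated multi-mapping reads is not given here; values of pseudogenes, overlapping and antisense genes are therefore uncertain. In 1 deposited table the Myo15 record lacked 1 cell and was shifted back. The replicates are biological per the design text, and no pair in a group agreed within sampling noise (chi-square per degree of freedom 2.93 to 11.34).

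CyrKO and Mir7DKO counts were joined on 38393 features, filtered (filterByExpr, minimum count 10), scaled by TMM and tested with edgeR 4.0.16 in R 4.3.3 (quasi-likelihood F-test, no covariate, Benjamini-Hochberg adjustment over all genes, threshold 0.05). The SE is the size of the log2 difference over the root of F. Wild-type CPM were scaled with all 12 libraries of experiment 1B. Independent libraries were tested the same way, as a contrast of 4 group means. The GC offset is a loess (span 0.3) of each library's log ratio on the GC content of the longest transcript (99.2% of genes). The fit was also run on simulated counts, which held no GC trend and no outlying library, so that run does not bear on either. DESeq2 1.42.0 and other settings are in the closing section. Genes named were taken from the network RNAs, all called genes, called list members, the next 8 by p in each direction, 6 site genes, 6 reported targets and genes called against wild type, with other list members picked on their values. Not every member of these sets is described, and Agbl3, Mmp17, Ptk2, Wipf2 and Cplx1 are among those left out. The members and lists were chosen with earlier results of these data known.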

Additional observations from a re-analysis of the deposited data

Results flagged for a closer look

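In 6 of 52 groups of 4 libraries tested, 1 library lay far from the other 3, by a rule that marks about 1 in 20 groups by chance. Summed choroid plexus markers were 170.5 CPM in CyrKO replicate 1 where the other 3 CyrKO libraries had 34.56 to 40.09 CPM. They were 336 CPM in Mir7DKO replicate 4, against 33.86 to 41.45 CPM. Ependymal markers were 68.06 CPM in CyrKO replicate 1, above 52.12 to 54.21 CPM. CyrKO replicate 2 was low in oligodendrocyte markers (6156 CPM against 8736 to 9210) and in markers of brainstem and deep nuclei (421.6 CPM against 582 to 611.2). CyrKO replicate 4 was low in midbrain and forebrain markers, at 294 CPM against 399 to 411.2.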

How the results depend on the processing

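Cyrano, Nusap1 and Cdr1as stayed past the threshold under all 16 alternatives, Cd59a under 10, Chchd10 and Fam46c under 8 and Fndc4 under 7. The 7 calls (2 higher, 5 lower) became 66 (27, 39) without a filter on low counts, 57 (15, 42) with DESeq2 and 4 (1, 3) with the GC offset, and the 3-group fit with wild type had 1 higher. Leaving out 1 library gave 3 to 99 calls, 1 to 74 higher and 2 to 25 lower. The independent contrast called 4 genes, 71 without a filter, 1 with a replicate block and 1 to 5 with a library left out. Mir7DKO against wild type called 1 gene, 5 with DESeq2. The cause of these moves was not tested.

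Correlations between CyrKO and Mir7DKO libraries of the same replicate number were 0.02, 0.03, 0.08 and 0.08. Those of different numbers ran from -0.15 to 0.08. The labels do not say whether equal numbers share a batch, and correlations this small cannot decide it. The replicate block called 7 genes (2 higher, 5 lower), losing Fndc4 and gaining Pisd-ps1, a pseudogene, and 2 genes in Mir7DKO against wild type. The GC offset and the DESeq2 and block fits against wild type were chosen after seeing the data. Depth was 8.15 to 14.92 M counts, which limits the precision of genes near 1 CPM.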
